A study of Canis lupus familiaris with 4 samples.

Results

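SPINK5, the Kunitz inhibitors TFPI, TFPI2, SPINT1 and SPINT2, and the protease ST14 are 6 genes of pericellular proteolysis in epithelia. They were chosen as all probe sets whose platform gene symbol is one of these names, which gave 9 of the 42924 probe sets on the array and 6 of the 15115 genes with a symbol. The cells were MDCKII, an established dog kidney epithelial line that forms a polarised monolayer, and there were 4 arrays with 1 array per group. All cells spent 24 h in normoxia and then another 24 h in either normoxia or hypoxia, and the labels call them HIF1A WT or HIF1A KD. The groups are therefore WT and KD in normoxia and WT and KD in hypoxia. The way the knockdown was made, whether it is 1 clone, and the oxygen level are not stated in the labels used here. No group has a replicate, so no difference below can be set against a spread between cultures, and precision is limited by the 4 arrays.

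Trypsin-like serine proteases at the epithelial surface are held in check by small inhibitor domains. SPINK5 encodes LEKTI, a secreted protein with a row of Kazal-type domains that blocks kallikrein-related peptidases, and loss of it in skin causes Netherton syndrome. SPINT1 and SPINT2 encode the membrane-anchored Kunitz inhibitors HAI-1 and HAI-2, whose best known target is matriptase, the membrane-anchored serine protease encoded by ST14. TFPI is the Kunitz inhibitor of tissue factor, factor VIIa and factor Xa, and TFPI2 is a related matrix-bound inhibitor that acts mainly on plasmin and trypsin.

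Values are deposited intensities on a linear scale. Differences are differences of log2(intensity + 16), which understate the change of dim genes. A gene was counted as above the floor where it reached 46.3, the intensity at the median of all log2 values, on at least 1 array. A gene was represented by its brightest probe set, and 9834 genes were above the floor. Of the 6 genes, 5 were above it, and only SPINT2 was above it on all 4 arrays. SPINK5 was above it on 3 arrays, TFPI2 on 2, SPINT1 and ST14 on 1 each, and TFPI on 0. A gene that reached the floor only through its high arrays had to differ, so the count that passed is no support for a difference.

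The arrays were alike in scale, with median intensities from 45.6 to 47.1, and Pearson's r between any 2 arrays, across probe sets, was 0.982 to 0.987. The knockdown label was checked with HIF1A, which encodes the oxygen-regulated subunit of the hypoxia-inducible transcription factor. HIF1A read 3651 on the array labelled WT normoxia, 3435 on the array labelled KD normoxia, 675 on the array labelled WT hypoxia and 625 on the array labelled KD hypoxia. HIF1A mRNA thus went with the oxygen label and not with the knockdown label, and directions below are those the labels give. An exchange of the labels of the arrays called KD normoxia and WT hypoxia would put the low HIF1A values on the KD arrays, and whether the labels were exchanged was not tested. Under such an exchange each oxygen difference printed below would be a genotype difference and each genotype difference an oxygen difference, while the difference of the responses would keep its value. Of the 9 measured markers of kidney and simple epithelium, 7 were above the floor on all 4 arrays, among them EPCAM and KRT18. The others were CDH1, which encodes E-cadherin, at 17.8 to 41.2, and PAX8, at 4.54 to 9.43. A probe set below the floor was therefore not read as absence of a gene, since E-cadherin is a known MDCK protein.

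SPINK5 had 1 probe set, and its level set the 2 arrays labelled hypoxia apart from the 2 labelled normoxia. It read 54.5 on the array labelled WT normoxia, 33.0 on the array labelled KD normoxia, 3751 on the array labelled WT hypoxia and 3110 on the array labelled KD hypoxia. Both arrays labelled hypoxia were thus far above both labelled normoxia, and the 2 within each oxygen label lay close together by comparison. In RNA of a whole culture, more transcript per cell and more cells with the transcript cannot be told apart. In the WT arrays the intensity was 68.8 times higher with labelled hypoxia, and the difference on the log2 scale was 5.74. In the KD arrays the difference was 5.996, but the normoxia value was below the floor. With values below the floor set at the floor, an alternative added after the data were seen, the KD difference was 5.65, and the hypoxia intensity was 67.1 times the floor intensity.

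Between the genotypes SPINK5 differed far less. The array labelled KD normoxia was 0.53 lower than the array labelled WT normoxia on the log2 scale, and the array labelled KD hypoxia was 0.27 lower than the array labelled WT hypoxia. The first of these shrank to -0.18 with the floor applied, because 1 of its 2 values lay below it. The labelled hypoxia response of WT cells minus that of KD cells was -0.26, and 0.09 with the floor applied, so its sign was not settled. These values are a description, since SPINK5 was chosen for its level on these arrays. It had the largest difference of all 9834 genes in both labelled oxygen pairs and the widest range over the 4 arrays, 6.27 on the log2 scale.

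**Figure D1:**
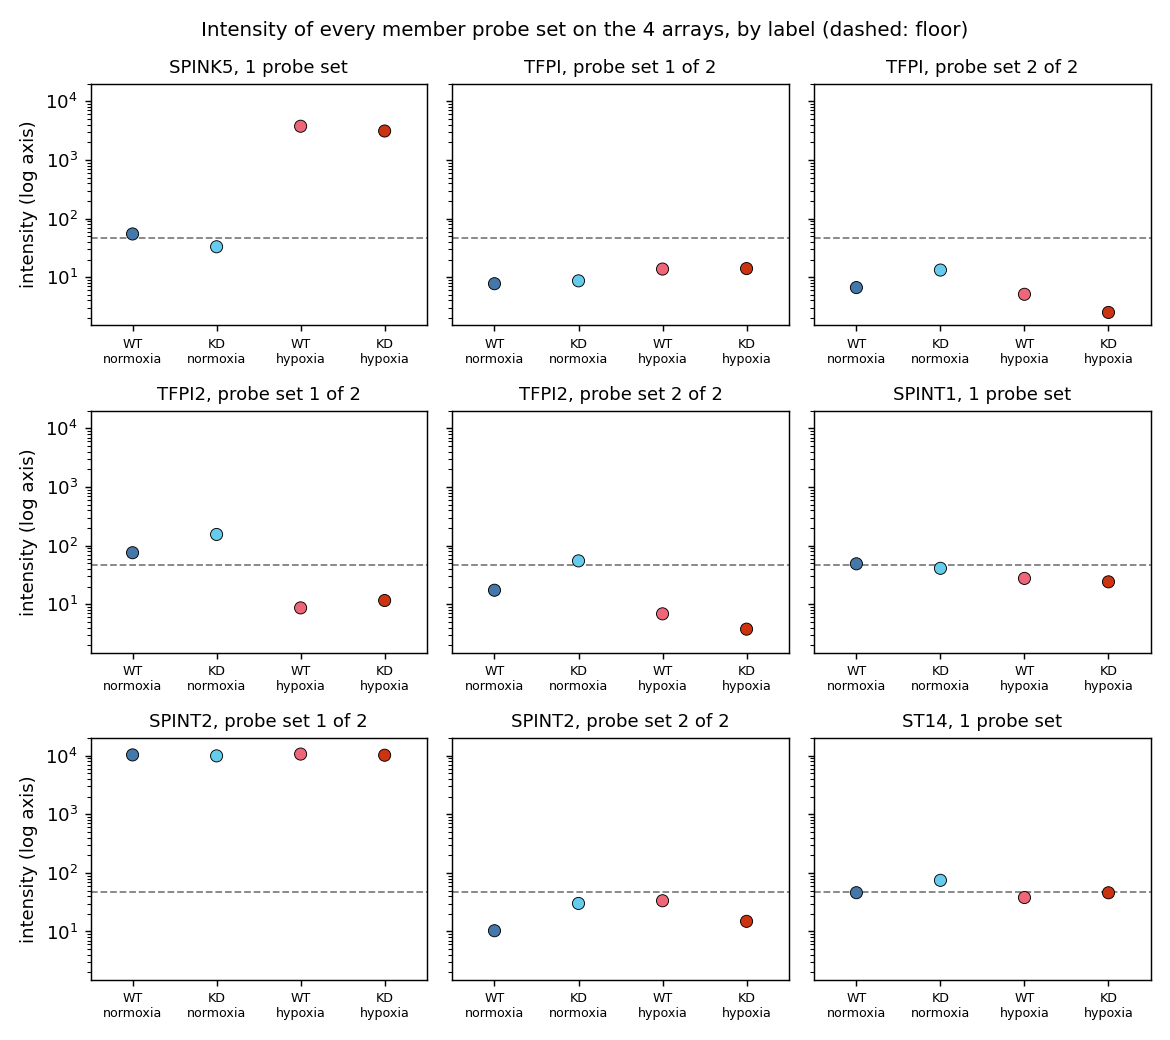
Deposited intensity (log axis) of each of the 9 probe sets of the 6 genes on the 4 arrays, 1 point per array, with the floor of 46.3 dashed. SPINK5 lies near the floor on the arrays labelled normoxia and at 3751 and 3110 on those labelled hypoxia, both TFPI2 probe sets are higher on the arrays labelled normoxia, and the first SPINT2 probe set is level at 9896 to 10625.

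TFPI2 ran the other way, although on a much dimmer scale. Its brighter probe set read 75.9 on the array labelled WT normoxia, 155 on the array labelled KD normoxia, 8.69 on the array labelled WT hypoxia and 11.6 on the array labelled KD hypoxia. Both arrays labelled normoxia were above the floor and both labelled hypoxia below it. The share of all genes whose values separate by oxygen label is not given, so nothing is read from such an order here or for the genes below. The differences with labelled hypoxia were -1.90 in WT and -2.63 in KD cells as deposited, and -0.56 and -1.46 with values below the floor set at the floor. The size of the difference below the floor was not measured, and in WT cells the part above the floor did not reach 2-fold.

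The second TFPI2 probe set kept the same order by oxygen label. It read 17.4 on the array labelled WT normoxia, 55.1 on the array labelled KD normoxia, 6.88 on the array labelled WT hypoxia and 3.77 on the array labelled KD hypoxia, so that 1 of its 4 values was above the floor. In normoxia both probe sets were higher on the array labelled KD, by 0.90 and 1.09 on the log2 scale. In hypoxia they had opposite signs, 0.16 and -0.21, with every value below the floor. TFPI2 was therefore highest on the array labelled KD normoxia in both probe sets.

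TFPI had no value above the floor. Its probe set with the higher mean log2 value read 7.73 on the array labelled WT normoxia, 8.65 on the array labelled KD normoxia, 13.7 on the array labelled WT hypoxia and 14.0 on the array labelled KD hypoxia. Its other probe set was at 6.64, 13.2, 5.10 and 2.5 in that order. All 8 values were below the floor, and the 2 probe sets gave opposite signs with labelled hypoxia in both genotypes, so no direction is given for TFPI.

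SPINT2 was level on the 4 arrays in its bright probe set. That probe set read 10281 on the array labelled WT normoxia, 9896 on the array labelled KD normoxia, 10625 on the array labelled WT hypoxia and 10154 on the array labelled KD hypoxia. Its 4 differences between arrays ran from -0.07 to 0.05, and its range over the arrays, 0.10 on the log2 scale, ranked 9400 of 9834 genes from the widest. A second SPINT2 probe set was at 10.3, 30.1, 33.4 and 14.9 in that order, below the floor on every array, and its differences of 0.91 and -0.58 with labelled hypoxia are not read.

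SPINT1 lay close to the floor. It read 49.1 on the array labelled WT normoxia, 41.1 on the array labelled KD normoxia, 27.7 on the array labelled WT hypoxia and 24.2 on the array labelled KD hypoxia. Both arrays labelled hypoxia were below both labelled normoxia, by 0.58 in WT and 0.51 in KD cells on the log2 scale. With values below the floor set at the floor these became -0.06 and 0, so the difference lay almost wholly below the floor.

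ST14, whose product matriptase is the target of both HAI proteins, was also near the floor. It read 45.9 on the array labelled WT normoxia, 74.6 on the array labelled KD normoxia, 37.9 on the array labelled WT hypoxia and 45.7 on the array labelled KD hypoxia. The array labelled KD normoxia was the highest and the only one above the floor, and the others read 37.9 to 45.9. With labelled hypoxia ST14 differed by -0.20 in WT and -0.55 in KD cells, and between the genotypes by 0.55 in normoxia and 0.19 in hypoxia, all short of 2-fold.

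Counted together, SPINK5 and TFPI2 were the 2 of the 5 members above the floor that differed at least 2-fold with labelled hypoxia, in the WT and in the KD arrays alike. Among all 9834 genes above the floor, 1.17% differed that much in the WT arrays and 1.56% in the KD arrays. Between the genotypes 0 of the 5 differed at least 2-fold in either oxygen label, where 1.18% of all genes did so in normoxia and 0.875% in hypoxia. For the difference of the 2 responses 0 of the 5 did, against 1.57% of all genes. The members were chosen with these values known, so nothing is read from these counts.

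**Figure D2:**
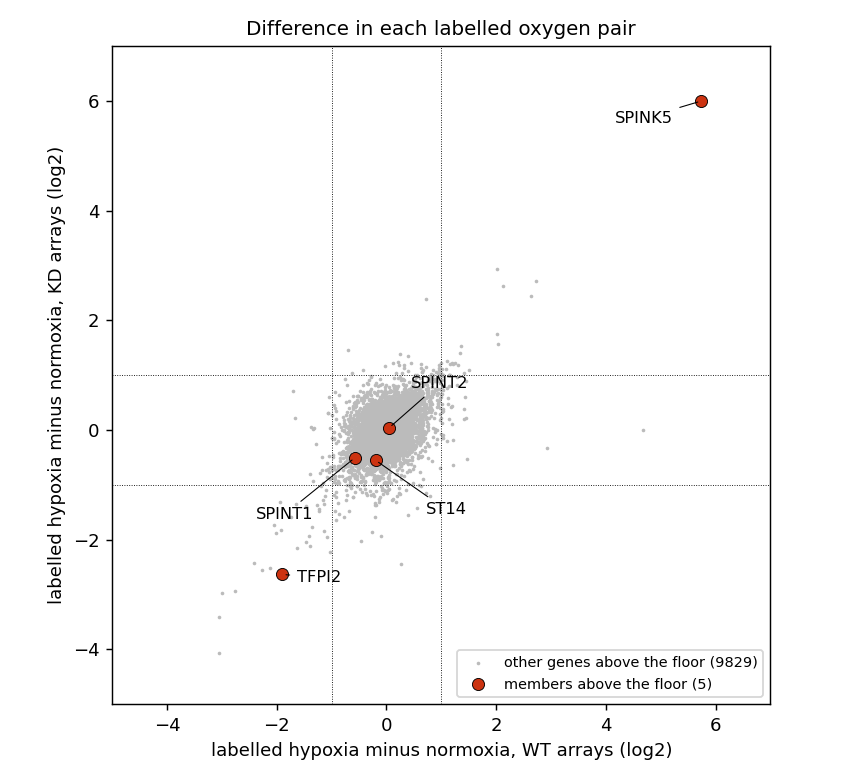
Difference of log2(intensity + 16) between the arrays labelled hypoxia and normoxia, in WT arrays (x axis) and KD arrays (y axis), 1 point per gene above the floor; dotted lines mark 2-fold. SPINK5 stands alone at 5.74 and 5.996, TFPI2 lies at -1.90 and -2.63, and SPINT1, SPINT2 and ST14 lie inside the 2-fold lines.

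Set beside the gene that the knockdown names, SPINK5 was high on the 2 arrays where HIF1A was low, and TFPI2 was high on the 2 arrays where HIF1A was high. SPINK5 and TFPI2 therefore moved with HIF1A mRNA and with the oxygen label at once, and these cannot be told apart on these arrays. Genes known to answer to hypoxia followed neither. ADM, a vasodilator peptide, read 563 on the array labelled WT normoxia, 4486 on the array labelled KD normoxia, 941 on the array labelled WT hypoxia and 2017 on the array labelled KD hypoxia. PDK1, which restrains the entry of pyruvate into the citric acid cycle, read 488, 3568, 455 and 927 in the same order, so both were highest on the array labelled KD normoxia. CA9 (105 to 112) and VEGFA (2281 to 2428), both widely used hypoxia markers, were level over the 4 arrays in their brightest probe sets. The second VEGFA probe set was dim and not level, at 51.8, 81.7, 25.4 and 60.4 in the same order. The second CA9 probe set read 57.1 to 72.9. TFPI2 and ST14, like ADM and PDK1, had their highest value on the array labelled KD normoxia and were lower with labelled hypoxia in KD cells. Within the hypoxia label their values were all below the floor, and the 2 TFPI2 probe sets differed between the genotypes with opposite signs, so no likeness is read there. For ADM and for PDK1 both arrays labelled KD were above both labelled WT. With the labels of the arrays called KD normoxia and WT hypoxia exchanged, the high SPINK5 values would lie on the 2 KD arrays and the TFPI2 values above the floor on the 2 WT arrays. The higher ADM and PDK1 values would then lie on the 2 hypoxia arrays.

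**Figure D3:**
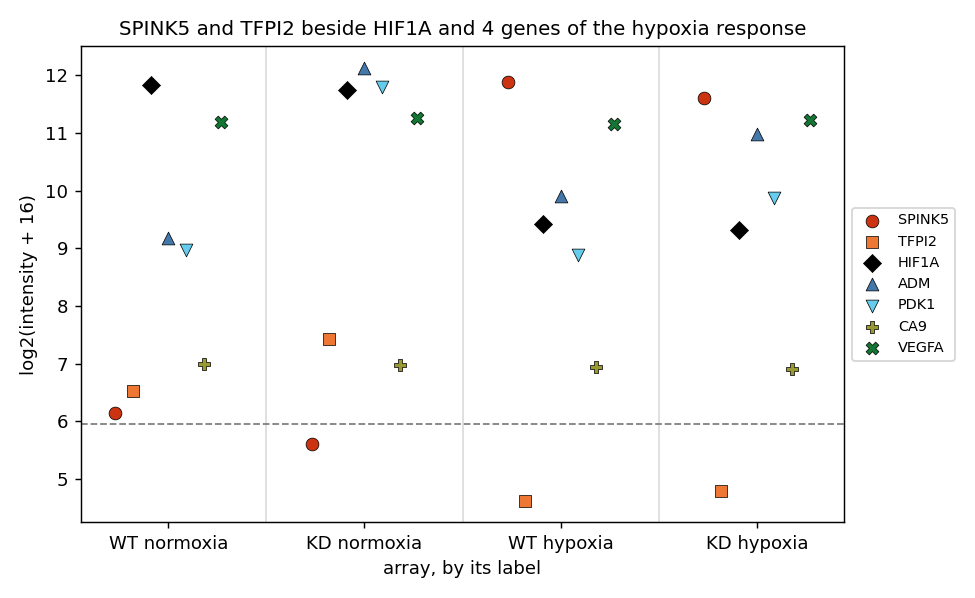
Log2(intensity + 16) of SPINK5 and TFPI2 beside HIF1A, ADM, PDK1, CA9 and VEGFA on the 4 arrays, 1 point per gene and array, with the floor dashed. SPINK5 is high where HIF1A is low, TFPI2 is above the floor where HIF1A is high, and ADM and PDK1 peak on the array labelled KD normoxia.

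The genes whose 4 values ran most like those of each member were found among the 8283 genes above the floor on all 4 arrays. Likeness was the root mean square distance between log2 values after each gene's mean was taken off. For SPINK5 the nearest were the chemokine CXCL10 (1.58), the tryptophan-degrading enzyme IDO1 (1.74) and the matrix protein EFEMP1 (1.74). Each is thus over 1 log2 unit from SPINK5 on average, and their differences by oxygen label were smaller. CXCL10 read 486, 294, 3304 and 2013 in the order WT then KD in normoxia, WT then KD in hypoxia. Like SPINK5 it was lower on the KD array within each oxygen label, but it was picked for its likeness to these values. The SPINK5 value on the array labelled KD normoxia was also below the floor. For TFPI2 the nearest were S100A4, a calcium-binding protein (0.09), SFTA2 (0.20) and IGFBP4, which binds insulin-like growth factors (0.31). S100A4 read 679, 1113, 144 and 182 in the same order, above the floor throughout, while the TFPI2 values it was matched to were below the floor on the arrays labelled hypoxia. For ST14 the nearest were ST6GALNAC4, CARD10 and ZP2, at 0.03 each, but only the ST14 value on the array labelled KD normoxia was above the floor.

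SPINK5 sits in a cluster of SPINK genes, and its neighbours on the chromosome were looked up in the gene order of RefSeq, a step chosen after the values were seen. Of the 3 protein-coding genes on each side, SPINK1, which encodes the pancreatic trypsin inhibitor, and C2H5orf46 were on the array. SPINK1 read from 17.7 to 22.7 and C2H5orf46 from 3.73 to 36.7, below the floor on all 4 arrays. Neither measured neighbour showed the level that SPINK5 had on the arrays labelled hypoxia. The other neighbours, among them SPINK14 and SPINK6, were not on the array, so nothing is known of them here. Around TFPI2, all 6 neighbours were on the array and 4 were above the floor: HEPACAM2, VPS50, GNG11 and BET1. Their differences with labelled hypoxia ran from -0.30 to 0.34 on the log2 scale. BET1, a vesicle transport protein, read 1448, 1618, 1363 and 1490 in the order WT then KD in normoxia, WT then KD in hypoxia, without the gap by oxygen label that TFPI2 had. Next to ST14 lies APLP2, itself a Kunitz domain gene, with differences of -0.22 in WT and -0.03 in KD cells.

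The wider protease network was described with 9 lists holding 152 other genes, of which 118 were on the array and 54 above the floor. At least 2-fold different with labelled hypoxia were 3 of the 54 in the WT arrays (1 higher, 2 lower) and 3 in the KD arrays (1 higher, 2 lower). That is 5.56% of the list genes in each pair, beside 1.17% and 1.56% of all genes above the floor. Between the genotypes 1 differed that much in normoxia and 0 in hypoxia. In the WT arrays these were COL7A1, PDGFD and PLAU, and in the KD arrays EVPL, PDGFD and SCNN1B, which was also the one in normoxia. In the difference of the responses 4 of the 54 were past 2-fold (3 higher, 1 lower), which is 7.41% beside 1.57% of all genes, and these were COL7A1, F2R, SCNN1B and, lower, EVPL. COL7A1, F2R, PDGFD and SCNN1B are named after their values were seen, since each was below the floor on at least 1 array of its comparison. With values below the floor set at the floor, 1 gene was past 2-fold in the WT arrays (PLAU) and 1 in the KD arrays (EVPL).

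Among other inhibitors no gene above the floor on both arrays of a pair differed 2-fold. The Kazal list had 4 genes on the array and 1 above the floor, SPINK4, at 463 to 514 on the 4 arrays. Of the other Kunitz domain genes, 4 of 9 were above the floor. APP, the amyloid precursor, had a bright probe set at 2598 to 3500, and its differences with labelled hypoxia were -0.24 in WT and 0.04 in KD cells. COL7A1, the anchoring fibril collagen of skin, differed by 1.45 in WT cells from a value of 9.83, and was above the floor on 1 array.

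Of 25 measured serpins 14 were above the floor and 0 differed 2-fold in any comparison. Their median difference with labelled hypoxia was 0.04 in the WT arrays and -0.14 in the KD arrays, beside medians of 0.01 and 0.02 over all genes above the floor. SERPINE2, an inhibitor of thrombin and plasminogen activators, read 3059, 2878, 2678 and 1964 in the order WT then KD in normoxia, WT then KD in hypoxia, and its lowest value was on the array labelled KD hypoxia. Its other 2 probe sets also were lowest there. Of 7 measured WAP domain inhibitors 4 were above the floor. WFDC2 was level at 6889 to 7831, and PI3, the elastase inhibitor elafin, was at -0.13 in WT and -0.91 in KD cells in 1 probe set and at -0.01 and 0.02 in the other.

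The proteases that these inhibitors act on were mostly dim. Of 11 measured kallikrein-related peptidases 5 were above the floor and 0 differed 2-fold. KLK5, KLK7 and KLK14, the main targets of LEKTI in skin, read from 4.85 to 16.02, from 5.34 to 11.6 and from 5.15 to 19.1 over the 4 arrays. The level of SPINK5 on the arrays labelled hypoxia thus had no counterpart in these probe sets, all below the floor. Of 16 measured membrane-anchored serine proteases 6 were above the floor and 0 differed 2-fold. Hepsin (HPN) read 2109 to 2398 and prostasin (PRSS8), which acts in a cascade with matriptase, 410 to 499. Both were above the floor on all 4 arrays, unlike ST14.

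Of 14 measured substrates and partners of matriptase and hepsin 12 were above the floor, and 9 of the 12 were lower and 3 higher with labelled hypoxia in the WT arrays, likewise in the KD arrays. The median differences were -0.19 and -0.42, beside 0.01 and 0.02 over all genes. The labelled KD minus WT difference was likewise lower in 9 and higher in 3, in normoxia (median -0.07) and in hypoxia (median -0.26). The medians over all genes were -0.01 in both. The lean to lower values was thus not particular to the oxygen label, and the share of all genes that were lower is not given here. PLAU, the urokinase plasminogen activator, read 395 on the array labelled WT normoxia, 283 on the array labelled KD normoxia, 184 on the array labelled WT hypoxia and 145 on the array labelled KD hypoxia. Both arrays labelled hypoxia were below both labelled normoxia, by 1.03 in WT and 0.90 in KD cells. PDGFD, a growth factor activated by proteolysis, read 107, 107, 40.6 and 37.6 in the same order, with the hypoxia values below the floor. SCNN1B, a subunit of the epithelial sodium channel, read 28.4, 87.5, 16.03 and 9.34, so it too was highest on the array labelled KD normoxia and above the floor there alone. EPCAM, an adhesion protein cleaved by matriptase, read 9356 to 11319 and was 0.26 and 0.20 higher with labelled hypoxia.

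The tissue factor pathway, which TFPI controls, had 17 measured genes, 5 of them above the floor. F3, tissue factor itself, read 12572, 14086, 13300 and 13098 in the order WT then KD in normoxia, WT then KD in hypoxia, and differed by 0.08 in WT and -0.10 in KD cells. F7, F10 and PLG, which encode circulating proteins made mainly in liver, were below the floor on every array, with 39.9 the highest value among them. In this list 0 genes differed 2-fold with labelled hypoxia or between genotypes. In the difference of the responses all 5 were positive in their brightest probe sets (median 0.44, beside -0.006 over all genes above the floor). The median gene was PROS1, whose other probe sets had the opposite sign, among them -0.22 in 1 above the floor on 3 arrays. In this comparison 1 gene of the list was past 2-fold, as were 1.57% of all genes. It was the thrombin receptor F2R at 1.05, which was above the floor only on the array labelled KD normoxia (48.8).

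SPINK5 is best known from stratified epithelium, so keratinocyte genes were set beside it. Of 5 measured keratinocyte or stratified epithelium markers 0 were above the floor. Their summed intensity was 36.5 on the array labelled WT normoxia, 67.1 on the array labelled KD normoxia, 65.0 on the array labelled WT hypoxia and 57.0 on the array labelled KD hypoxia, with TP63 at most 12.7 and KRT1 at most 2.23. This sum did not separate the arrays by oxygen label as SPINK5 did. Of 15 measured genes of keratinocyte differentiation 3 were above the floor. PPL, the plaque protein periplakin, was lower with labelled hypoxia by 0.74 in WT and 0.61 in KD cells. EVPL, its partner envoplakin, read 260, 153, 303 and 380 in the order WT then KD in normoxia, WT then KD in hypoxia, with differences of 0.21 and 1.23. TGM1, a transglutaminase of the cornified envelope, read 214 to 319.

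Markers of other cell types did not follow SPINK5 either. Of 8 fibroblast markers 1 was above the floor (PDGFRA, 49.0 to 60.5), of 7 endothelial markers 3, and of 6 measured leukocyte markers 4. The summed intensities over the 4 arrays were 143 to 170 for fibroblast, 288 to 374 for endothelial and 351 to 424 for leukocyte markers. PECAM1 and VWF were at most 27.5, and CD3E at most 37.0, all below the floor. In each of these 3 lists the sums on the arrays labelled hypoxia overlapped those on the arrays labelled normoxia.

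**Figure D4:**
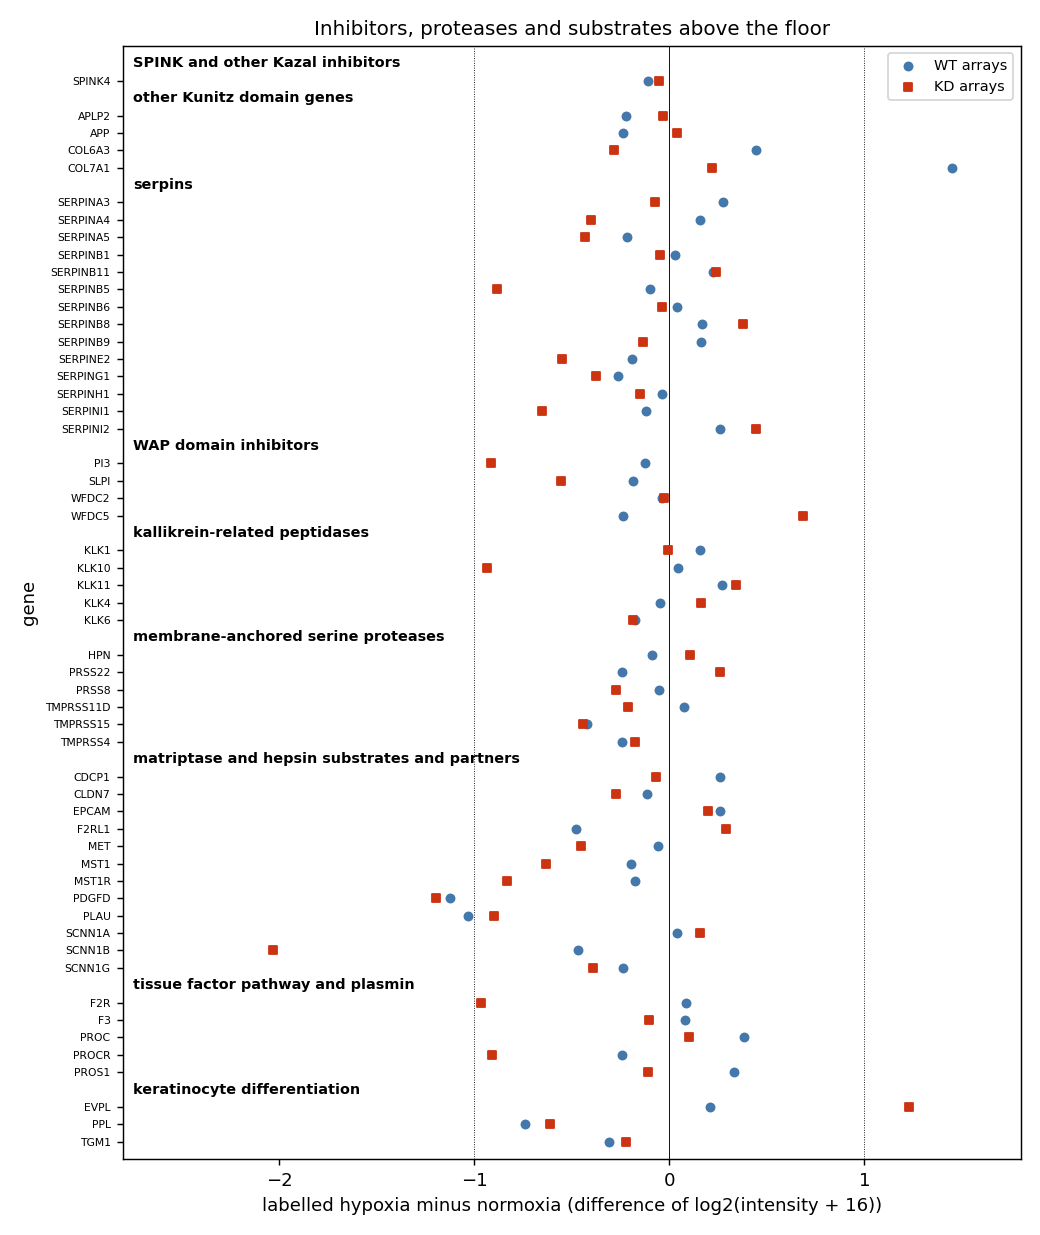
Difference of log2(intensity + 16) between the arrays labelled hypoxia and normoxia for the 54 list genes above the floor, grouped by list, with WT arrays as circles and KD arrays as squares; dotted lines mark 2-fold. Most genes lie inside the 2-fold lines, and PLAU and PDGFD lie near or past -1 in both genotypes. COL7A1 (1.45) is past 2-fold in WT arrays, and SCNN1B (-2.03) and EVPL (1.23) are past 2-fold in KD arrays. The differences of PDGFD, COL7A1 and SCNN1B rest on values below the floor on at least 1 array.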

How the data were processed

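RNA of 4 MDCKII samples was labelled from 100 ng of total RNA with an Affymetrix IVT kit, per the labels' protocols, and each sample was hybridised to 1 array. The authors deposited 1 intensity per probe set per array, not log-transformed. How the image was turned into these values is not stated in the labels, and no detection calls were used.

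Probe sets were named from the platform annotation (29254 with 1 symbol, 439 with several, 13231 with none), and RefSeq's German Shepherd assembly gave gene order alone. Values were taken as log2(intensity + 16). The floor was the median of all log2 values (5.96). With 1 array per group no test was made, and differences of at least 2-fold were counted.

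The members and the gene lists were chosen with earlier results of these data known. Besides members, HIF1A and hypoxia genes, the rule named list genes at least 2-fold different and above the floor on both arrays, or else the 2 genes of a list, above the floor throughout, with the largest mean absolute difference over the 4 comparisons, and the 3 genes most like SPINK5, TFPI2 and ST14. Other list genes named for their role were chosen after their values were seen.

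Alternatives were 3 scalings (limma 3.58.1 in R 4.3.3), other pseudocounts, floors, thresholds and probe set rules. Counting was tested on simulated data with Python 3.11.15. Changes were put only into genes well above the floor, so their recovery near or below the floor was not tested.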

Additional observations from a re-analysis of the deposited data

Results flagged for a closer look

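Of 20 genes examined, which are the 5 members above the floor and the list genes named by rule, 9 had opposite signs of a labelled difference in the 2 pairs of arrays that share a contrast. In 5 the labelled hypoxia difference had opposite signs in WT and KD cells, and in 5 the labelled KD minus WT difference had opposite signs in normoxia and hypoxia. No member was among them. The opposite signs were not tested, there being 1 array per group, and a small difference can take either sign. The share of all genes above the floor with opposite signs is not given here, so 9 of 20 is not read as unusual.

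The labelled hypoxia response of WT cells minus that of KD cells, on the log2 scale, was -0.27 for APP, -0.21 for KLK4, 0.44 for PROS1, -0.50 for PRSS22 and 0.29 for TMPRSS11D, in which the oxygen differences had opposite signs. For TMPRSS11D the genotype differences did so too. It was -0.19 for APLP2, -1.02 for EVPL, 0.79 for PI3 and 0.28 for PROC, in which the genotype differences alone had opposite signs. Of these 9 only EVPL passed 2-fold, and its other probe set, below the floor on every array, had a value of the opposite sign. All signs above are those of the brightest probe set of a gene. The dimmer APP probe set, above the floor on all 4 arrays, gave oxygen differences of the same sign (WT -0.38, KD -0.16). For PROS1, the probe set above the floor on 3 arrays gave signs reversed from the brightest (WT -0.17, KD 0.04). The dimmer PI3 probe set gave genotype differences of the same sign (normoxia 0.08, hypoxia 0.10).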

How the results depend on the processing

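Values with no replicate were called moved when they shifted by more than 0.16, the median absolute difference of the responses over all genes above the floor. With quantile scaling, median centring and cyclic loess, every SPINK5 difference and every count of members or list genes past 2-fold stayed within those bounds, and no called difference of a member changed sign under any alternative run. The SPINK5 difference was 6.08 in WT and 6.52 in KD cells with a pseudocount of 1, and 5.01 and 5.03 with a pseudocount of 64. Between the genotypes in normoxia it was -0.71 and -0.29 under these 2 pseudocounts, and its difference of the responses -0.44 and -0.024. With values below the floor set at the floor, an alternative added after the data were seen, SPINK5 was at 5.65 in KD cells, -0.18 between the genotypes in normoxia and 0.091 in the difference of the responses.

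In the WT arrays the count of members past 2-fold went from 2 to 1 (SPINK5) with a pseudocount of 64, with the floor raised to the 75th percentile and with values below the floor set at the floor, and in the KD arrays to 1 with the higher floor. The shares of all genes past 2-fold were 0.447%, 1.15% and 0.803% in these WT settings and 1.39% in the KD setting. TFPI2 made the count 1 in place of 0 between the genotypes in normoxia with a pseudocount of 1 or a 1.5-fold threshold, where 2.24% and 6.58% of all genes passed. It did so in the difference of the responses with the median over probe sets or a 1.5-fold threshold, where 1.23% and 7.55% passed.

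Counts of list genes past 2-fold were small and depended on dim genes. In the WT arrays 3 became 0 with a pseudocount of 64, 5 without a floor, and 1 with the higher floor or values set at the floor. The shares of all genes were 0.447%, 1.21%, 1.15% and 0.803% in that order. In the KD arrays 3 became 8 with a pseudocount of 1, and 1 with the median over probe sets, the higher floor or values set at the floor. There the shares of all genes were 2.68%, 1.28%, 1.39% and 1.01%. In the normoxia genotype pair 1 became 4 with a pseudocount of 1, 2 without a floor, and 0 with a pseudocount of 64, the median over probe sets, the higher floor or values set at the floor. All genes gave 2.24%, 1.18%, 0.508%, 0.994%, 1.17% and 0.783% in that order. For the difference of the responses 4 became 7 with a pseudocount of 1, 8 without a floor, 0 with a pseudocount of 64, and 1 with the median over probe sets, the higher floor or values set at the floor. All genes gave 3.19%, 3.57%, 0.244%, 1.23%, 0.389% and 0.427% in that order. Pairing by replicate number does not apply, with 1 array per group, and leaving out a replicate would leave a group empty. An additive fit of oxygen and genotype over the 4 arrays would leave 1 residual degree of freedom and was not run here.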
